A study of Mus musculus with 8 samples.

Results

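The nuclear factor I (NFI) transcription factors of the mouse are encoded by 4 genes, Nfia, Nfib, Nfic and Nfix, and their transcripts were described in neural stem and progenitor cells (NSPCs) of the postnatal cortex. The members were chosen by symbol, without use of their values, and are 4 of the 55385 genes in the deposited tables. Each symbol matched 1 gene ID: Nfia is ENSMUSG00000028565.18 and Nfib is ENSMUSG00000008575.17, both on chromosome 4, Nfic is ENSMUSG00000055053.18 on chromosome 10 and Nfix is ENSMUSG00000001911.16 on chromosome 8. NSPCs were sorted by flow cytometry from dissociated cortex at postnatal day 7. The 4 iKO libraries came from mice carrying Ash2l f/f, floxed on both alleles, together with Nestin-CreERT2 and a tdTomato reporter, and the 4 WT libraries from mice with Nestin-CreERT2 and tdTomato and no floxed allele. Both groups therefore carried the Cre and the reporter. CreERT2 is a Cre recombinase that acts when tamoxifen is given, and here the Nestin promoter drives it, so cells without Nestin activity are not targeted. The time of induction is not given in the sources used here. ASH2L belongs to the enzyme complexes that place methyl groups on lysine 4 of histone H3. A form of this mark lies at active promoters and is most prominent where CpG dinucleotides are dense.

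NFI proteins bind DNA as dimers through a conserved amino-terminal domain that reads the palindrome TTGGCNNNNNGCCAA, and they can activate or repress transcription. In the developing mouse brain NFIA, NFIB and NFIX drive the change of radial glia from making neurons to making glia, and they activate astrocyte genes such as Gfap. Loss of Nfia, Nfib or Nfix in mice delays the differentiation of progenitors in the cortex and hippocampus. NFIC is best known for its part in tooth root formation in mice.

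Levels are given in TPM, a unit scaled for transcript length and for the total of the library. A comparison of levels between genes rests on the lengths used for that scaling, which are not given. The sequencing depth of each library is unknown. The targeted gene, Ash2l, averaged 7.13 ± 0.714 TPM over the iKO libraries, against 17.6 ± 1.33 TPM over the WT libraries (SD, n = 4 each), and the groups did not overlap. The log2 difference of Ash2l was -1.20 (adjusted p = 3.82e-06), and -1.07 with the sex score described next as covariate (adjusted p = 0.142). The sex score is the mean log2(TPM + 1) of 4 Y-linked genes minus that of Xist. It spanned -0.824 to -0.262 among iKO libraries and 0.565 to 1.01 among WT libraries. Sex composition and an effect of genotype on these genes cannot be told apart from the score. Because it separates the groups without overlap, it largely stands in for genotype as a covariate. The SE then widens, for Nfix from 0.0153 to 0.0620. A call held or lost in that fit therefore cannot tell sex from genotype. Of 15 markers of stem cells and radial glia, 14 passed the filter on low values and Hopx did not. The submitters call the libraries biological replicates, but whether each came from a single animal is not stated, so p-values measure the spread between these libraries, part of which may be technical. In such bulk samples, fewer cells of a type and less RNA per cell cannot be told apart.

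RefSeq promoter windows, running from 250 bases before to 50 bases after a gene start in GRCm38.p6, were matched for 3 of the 4 members. They are shown because a form of the mark written by ASH2L-containing complexes lies at promoters. Each is printed 5′ to 3′ on the strand of the gene, with CpG dinucleotides in capitals.
Nfix, chr8:84780033-84780332, minus strand: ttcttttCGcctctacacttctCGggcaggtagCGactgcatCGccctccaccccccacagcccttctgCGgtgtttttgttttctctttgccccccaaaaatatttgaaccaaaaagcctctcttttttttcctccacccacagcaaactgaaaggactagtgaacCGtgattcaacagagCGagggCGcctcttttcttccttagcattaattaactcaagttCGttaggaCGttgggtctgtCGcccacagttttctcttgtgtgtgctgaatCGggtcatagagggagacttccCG
Nfic, chr10:81427124-81427423, minus strand: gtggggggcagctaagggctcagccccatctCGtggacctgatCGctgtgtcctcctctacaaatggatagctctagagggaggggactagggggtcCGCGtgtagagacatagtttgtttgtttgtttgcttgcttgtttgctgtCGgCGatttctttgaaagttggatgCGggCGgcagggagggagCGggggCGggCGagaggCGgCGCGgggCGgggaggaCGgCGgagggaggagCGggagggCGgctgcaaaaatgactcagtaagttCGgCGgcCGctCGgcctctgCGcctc
Nfia, chr4:97581693-97581992, plus strand: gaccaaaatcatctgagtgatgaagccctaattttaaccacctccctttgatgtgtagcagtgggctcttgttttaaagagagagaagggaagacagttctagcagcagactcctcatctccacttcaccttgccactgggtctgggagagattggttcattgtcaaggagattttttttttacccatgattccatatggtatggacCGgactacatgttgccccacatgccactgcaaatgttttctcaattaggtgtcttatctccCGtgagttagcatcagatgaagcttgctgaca
The Nfic window held 24 CpG dinucleotides, more than 80.0% of the 32851 windows of the same length, whose median was 7. The Nfix window printed here held 13, more than 62.1% of windows, and the windows at the other 3 RefSeq starts of Nfix held 4, 9 and 2. The Nfia window held 2, more than 14.1% of windows. Which of these starts was in use in the cells was not measured.

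The full palindrome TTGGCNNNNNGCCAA was in 12 of the 32851 windows (0.0365%) and in none of the member windows. Nor did any member window hold the shorter TGGCNNNNNGCCA, which was in 0.807% of windows. The core TTGGC, searched on both strands and counted also where it lies inside a palindrome, was in 46.7% of windows. It was absent from the windows of Nfia and Nfic and from the Nfix window printed above, and present at the other 3 Nfix starts. Each stretch below shows every copy that it holds in capitals, read as TTGGC or as its reverse complement GCCAA. They come from Nfix and from 3 genes reported to be activated by NFI factors that changed in iKO. A further Nfix copy, at chr8:84773361-84773402, is not printed.
Nfix, chr8:84775979-84776023, minus strand: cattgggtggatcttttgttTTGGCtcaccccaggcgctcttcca
Nfix, chr8:84772856-84772900, minus strand: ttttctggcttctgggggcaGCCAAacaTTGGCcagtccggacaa
Fabp7, chr10:57784848-57784892, plus strand: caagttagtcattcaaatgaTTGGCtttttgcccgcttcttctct
Mmd2, chr5:142608833-142608877, minus strand: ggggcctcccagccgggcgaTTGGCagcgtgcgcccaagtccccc
Zcchc24, chr14:25769078-25769122, minus strand: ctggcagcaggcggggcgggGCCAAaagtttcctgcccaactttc
Of 10 genes in the activated list with a window, 7 held the core, as did 1 of 1 in the repressed list, Ezh2. A match is a description of the letters and not evidence of binding.

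The iKO libraries were set against WT to ask how Ash2l deletion affects RNA levels. Nfix fell to about 79.5% and Nfib to about 92.0% of their WT level, while Nfia and Nfic did not pass the test. A gene was called changed at an adjusted p under 0.05 in limma on log2(TPM + 1), over all genes with at least 1 TPM in at least 4 libraries. All 4 members passed that filter. The 2 called members, both lower, stand against a background of 52.6% of 16413 tested genes called, 20.7% higher and 31.9% lower. Of called genes, 39.3% were higher without further scaling, 51.1% with trimmed mean of M values factors, 49.7% with quantile normalization and 53.2% once fold changes were freed of their trend with transcript length and GC content. The share of members called is near the share of all genes called. The groups did not overlap for Nfix and Nfib, as for 49.2% of all tested genes, 29.9% being lower in iKO. In the authors' deposited table, where all 4 members had an adjusted p under 0.05, 33.9% of 29420 genes did, and 53.9% of the 16413 genes tested here.

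Nfix encodes an NFI factor needed for orderly maturation of the hippocampus and ventricular zone in mice, and linked to quiescence of cultured mouse neural stem cells. It stood at 489.6, 493, 505 and 487 TPM in iKO replicates 1 to 4, and at 618, 623, 629 and 614 TPM in WT replicates 1 to 4. All 4 iKO libraries were below all 4 WT libraries, with a gap far wider than the spread in either group. The mean was 494 ± 7.66 TPM over the iKO libraries, against 621 ± 6.37 TPM over the WT libraries (SD, n = 4 each). On the log2(TPM + 1) scale the difference was -0.33 (SE 0.0153, 95% interval -0.36 to -0.30, adjusted p = 4.52e-07). For Nfix the authors' deposited table holds -0.27 on the log2 scale (SE 0.0179, adjusted p = 4.51e-49). Among the genes called lower, 59.1% fell by more than Nfix, so its fall was of ordinary size for this comparison, whose median among genes called lower was -0.38. Its direction and call held under all 19 alternatives, between -0.37 and -0.25.

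Nfib encodes an NFI factor required for cortical gliogenesis, callosal development and lung maturation in mice. It stood at 287, 283, 286.5 and 277 TPM in iKO replicates 1 to 4, and at 303, 312, 311 and 305 TPM in WT replicates 1 to 4. The groups did not overlap, with the highest iKO library at 287 TPM and the lowest WT library at 303 TPM. The log2 difference was -0.12 (SE 0.0186, 95% interval -0.16 to -0.08, adjusted p = 0.000681), a fall that 95.9% of genes called lower exceeded. The authors' deposited table gave -0.06 for Nfib (adjusted p = 8.23e-05). The fall depended on how the data were scaled: it was -0.05 with trimmed mean factors (adjusted p = 0.0368) and -0.17 with quantile normalization (adjusted p = 4.96e-05), and the sign turned to 0.02 (adjusted p = 0.391) once a trend of fold change on transcript length and GC content was removed. Nfib has a longest annotated transcript of 9116 nt, and the trend at its length and GC content was -0.14. With the sex score as covariate Nfib was at -0.14 with a wider SE (0.0771), and was no longer called (adjusted p = 0.404).

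Nfia encodes the NFI factor that acts after SOX9 to start gliogenesis in the mouse and chick spinal cord. Its levels were 86.0, 86.4, 85.9 and 83.5 TPM in iKO replicates 1 to 4, and 87.3, 88.9, 88.1 and 86.1 TPM in WT replicates 1 to 4. The groups overlapped by a narrow margin, as iKO replicate 2 lay above WT replicate 4. The log2 difference was -0.04 (95% interval -0.09 to 0.02, adjusted p = 0.238), an interval that holds both a small fall and a small rise. The sign was not stable: trimmed mean factors gave 0.03 (adjusted p = 0.234) and removal of the length and GC trend gave 0.11 (adjusted p = 0.00493). The authors' deposited table gave a rise of 0.09 for Nfia (SE 0.0183, adjusted p = 1.29e-05). The longest Nfia transcript, of 9526 nt, is the longest among the members, and the trend at its length and GC content was -0.14.

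Nfic stood at 14.1, 13.7, 21.8 and 14.7 TPM in iKO replicates 1 to 4, and at 16.2, 11.9, 12.5 and 18.8 TPM in WT replicates 1 to 4. The groups overlapped throughout and iKO replicate 3 lay apart from the rest of its group. The log2 difference was 0.10 (95% interval -0.30 to 0.51, adjusted p = 0.649), and -0.04 without iKO replicate 3 (adjusted p = 0.83). The authors' deposited table went the other way and called a fall of -0.30 for Nfic (SE 0.0788, adjusted p = 0.000468). Such disagreement in sign was uncommon: of 8850 tested genes that the authors' deposited table called, 374 (4.23%) had the opposite sign in TPM, and 67 of these were called in both. The coefficient of variation of Nfic was 24.1% in iKO and 21.8% in WT. Among 2490 tested genes with a mean of 10 to 20 TPM the median was 6.72% in iKO and 7.18% in WT, and 96.5% of these genes in iKO and 94.5% in WT varied less than Nfic. The other 3 members varied by 1.03% to 1.69%.

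**Figure D1:**
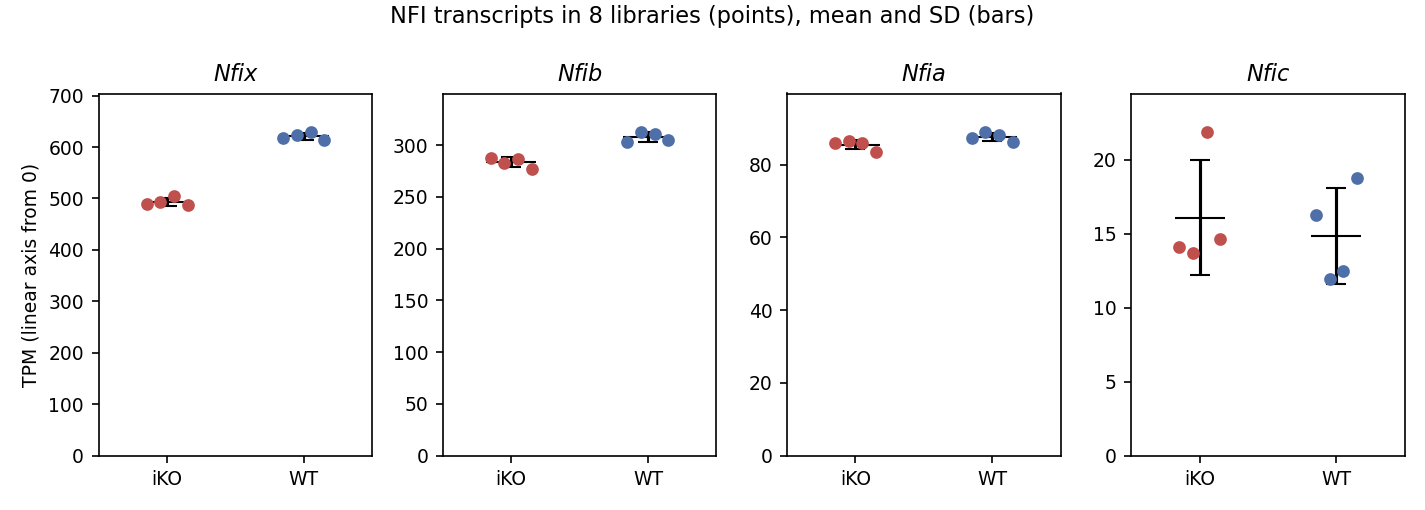
TPM of each NFI gene (y axis, linear from 0, a separate range per panel) in the 4 iKO and 4 WT libraries (points), with the mean and SD of each group. Nfix (494 and 621 TPM in iKO and WT) and Nfib separate the groups, as do 49.2% of all tested genes. Nfia nearly coincides and Nfic is spread within both groups.

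The fold changes under every setting show Nfix well below 0 in each, Nfib near 0 after removal of the length and GC trend, Nfia on both sides of 0, and Nfic with wide errors.

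**Figure D2:**
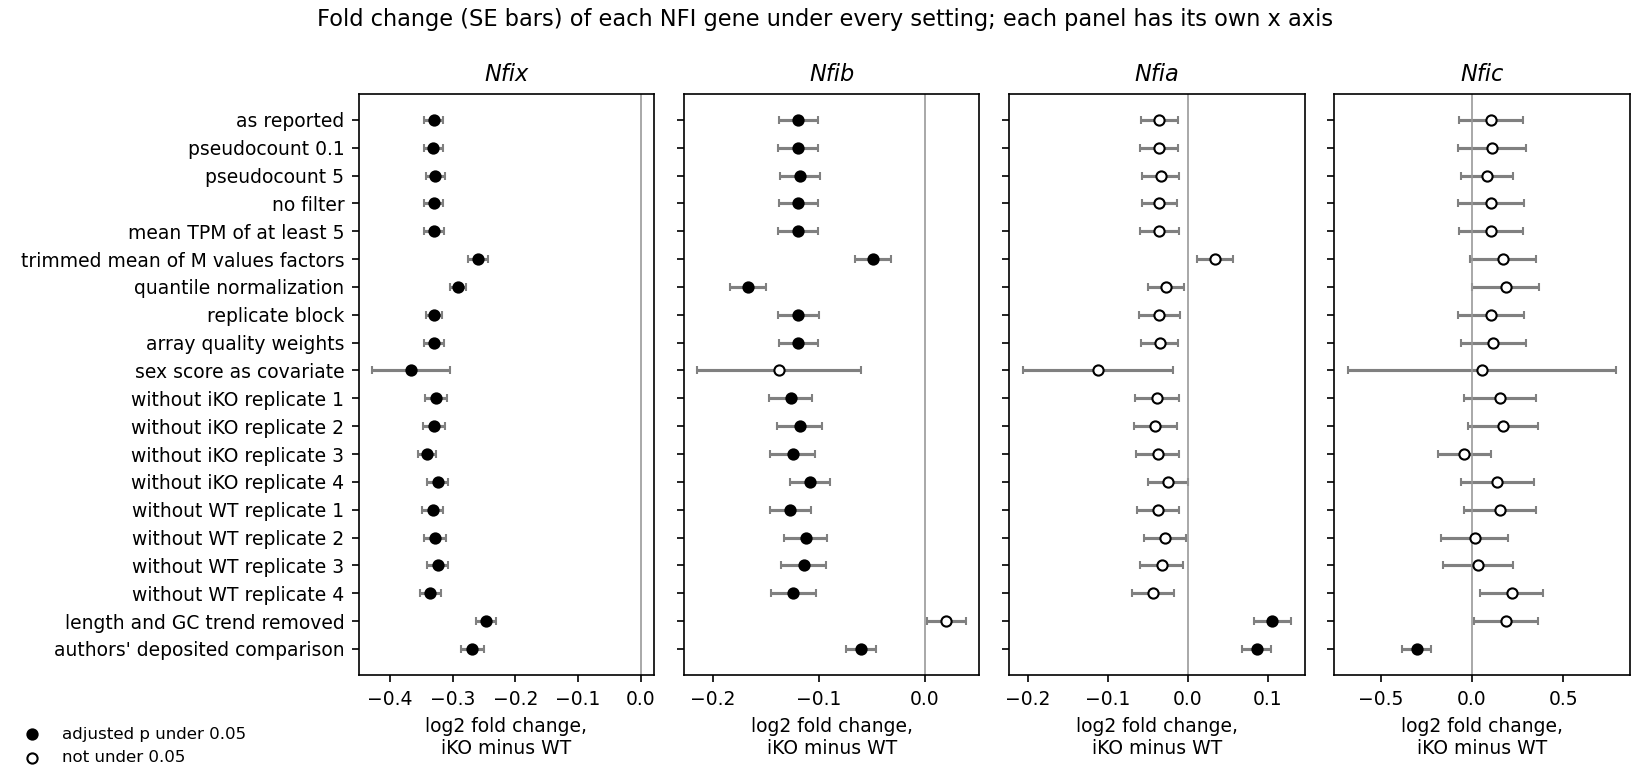
Log2 fold change, iKO minus WT (x axis, a separate range per panel), of each NFI gene as reported and under 19 alternatives (rows), with SE bars; filled points have an adjusted p under 0.05. Nfix lies between -0.37 and -0.25 in all alternatives, Nfib is called in 17, Nfia in 2 and Nfic in 1.

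The order of levels was Nfix, Nfib, Nfia, Nfic in all 8 libraries, and no neighbouring pair overlapped in any group. By mean TPM, Nfix lay above 98.7% of tested genes, Nfib above 97.0%, Nfia above 86.0% and Nfic above 52.5%. The authors' deposited table ranks them otherwise, with Nfib at 18197, Nfia at 6894, Nfix at 6700 and Nfic at 268. This mean normalized signal is not per length. Longest annotated transcripts are 9116 nt for Nfib, 9526 nt for Nfia, 5476 nt for Nfix and 6237 nt for Nfic. Why the ranks differ was not tested. The order of the members in TPM, and their shares below, rest on the lengths behind the TPM, which are not given.

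The summed level of the 4 genes was 877, 875, 899 and 863 TPM in iKO replicates 1 to 4, and 1025, 1036, 1040.2 and 1023 TPM in WT replicates 1 to 4. Every iKO sum lay below every WT sum, mostly through Nfix, which fell by far the most in TPM. Nfix made up 56.2 ± 0.293% of the sum in iKO and 60.2 ± 0.211% in WT (SD, n = 4 each). The share of Nfib was 32.3 ± 0.381% in iKO and 29.9 ± 0.243% in WT, and that of Nfia 9.73 ± 0.139% in iKO and 8.50 ± 0.0704% in WT. Nfic held 1.83 ± 0.407% in iKO and 1.44 ± 0.324% in WT. Shares add up to a whole, so a lower share of 1 member raises the others.

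**Figure D3:**
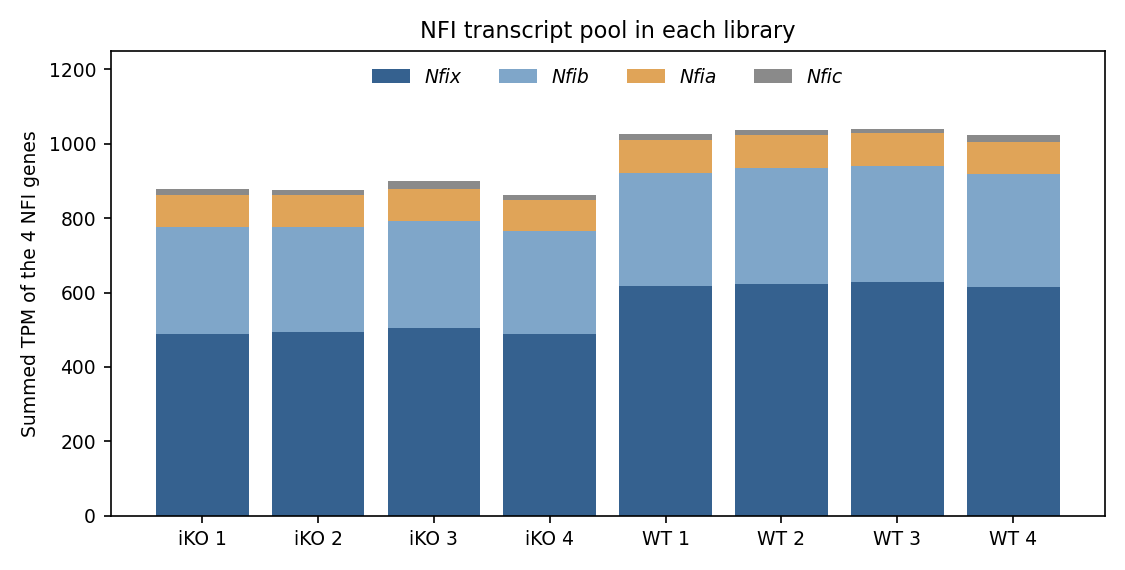
Summed TPM of the 4 NFI genes (y axis, from 0) in each iKO and WT library (bars), divided by gene. Sums lay between 863 and 899 TPM for iKO, against 1023 to 1040.2 TPM for WT, and the Nfix part is the one that differs most.

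Ratios of members within a library do not depend on library scaling, and all 6 pairs were compared. The log2 ratio of Nfix to Nfib was 0.80 ± 0.0226 in iKO and 1.01 ± 0.0138 in WT (SD, n = 4 each), a difference of -0.21 with no overlap between the groups. Nfix to Nfia differed by -0.29 and Nfib to Nfia by -0.08, each again with every iKO ratio below every WT ratio. For these 3 pairs the exact two-sided permutation p was 0.0286, the smallest that 70 assignments allow, and 0.0571 adjusted over the 6 pairs, which misses 0.05. The pairs with Nfic overlapped: Nfix to Nfic differed by -0.43 (exact p = 0.114, adjusted 0.171), Nfib to Nfic by -0.22 (exact p = 0.343, adjusted 0.411) and Nfia to Nfic by -0.14 (exact p = 0.571, adjusted 0.571). Without WT replicate 4 the adjusted p was 0.0429 for Nfix to Nfib, Nfix to Nfia, Nfib to Nfia and Nfix to Nfic, the last at -0.55.

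Genes of the GENCODE M21 annotation lie over each member on the opposite strand, and reads of both strands cannot be told apart in a library that does not keep strand. The shared exon sequence was short. It was 137 bases of Nfix (1.86% of its exon bases) with G430095P16Rik, 72 bases of Nfic (1.09%) with Gm16104, and 4 bases each of Nfia with E130114P18Rik and of Nfix with Lyl1. Gm11266 shared none with Nfib.

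Genes reported by earlier studies to be activated by NFI factors moved both ways. Among the 12 tested, 2 rose, 7 fell and 3 missed the threshold. Over all tested genes 20.7% were called higher and 31.9% lower. The median log2 difference of the list was -0.18, beside -0.06 over all tested genes. With the sex score as covariate the calls of Serpina3n, Sparcl1, Slc1a3, Mmd2 and Fabp7 held. Those of Gfap (adjusted p = 0.123), Zcchc24 (adjusted p = 0.188), Apcdd1 (adjusted p = 0.767) and Cdh2 (adjusted p = 0.48) did not. That fit cannot tell sex from genotype, since the score follows the groups. Chi3l1 was not matched under that symbol, and other names for it were not searched. Gabra6 was listed at 0 in every library. Serpina3n, an acute-phase protease inhibitor gene of reactive astrocytes, stood at 12.9, 12.4, 12.8 and 12.2 TPM in iKO replicates 1 to 4, against 55.4, 50.5, 53.3 and 57.6 TPM in WT replicates 1 to 4. The iKO libraries held less than any WT library by a wide margin, at a log2 difference of -2.02 (SE 0.0466, adjusted p = 9.2e-09). Sparcl1, a secreted matrix protein gene of astrocytes, averaged 2152 ± 37.5 TPM over the iKO libraries, against 3469 ± 81.3 TPM over the WT libraries (SD, n = 4 each). The glutamate transporter gene Slc1a3 fell by 0.72 on the log2 scale (adjusted p = 1.61e-08). Gfap, the intermediate filament gene of astrocytes, averaged 749 ± 14.1 TPM over the iKO libraries, against 898 ± 10.8 TPM over the WT libraries (SD, n = 4 each; log2 difference -0.26, adjusted p = 2.72e-06).

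Mmd2 and Zcchc24, described as joint targets of NFIA and SOX9 in the spinal cord, fell by 0.34 and 0.38 on the log2 scale (adjusted p = 5.54e-07 and 2.06e-05), while Apcdd1, a Wnt inhibitor gene described as a target with them, rose by 0.32 (adjusted p = 0.000629). The fatty acid binding protein gene Fabp7 rose by 0.48 (adjusted p = 3.06e-07). The N-cadherin gene Cdh2 was at -0.06 (adjusted p = 0.0352), but trimmed mean factors turned its sign to 0.01 (adjusted p = 0.768) and removal of the length and GC trend to 0.03 (adjusted p = 0.209). The Cdh2 call was also lost with the replicate block (adjusted p = 0.0823) and on leaving out any of 6 of the 8 libraries singly. Nor was Cdh2 called in the authors' deposited table, where its sign was positive (0.04, adjusted p = 0.081). Cntn2, a contactin gene, did not pass (0.25, adjusted p = 0.0581), but it was called higher under quantile normalization (0.38, adjusted p = 0.0103), under trimmed mean factors (0.30, adjusted p = 0.0271), with the trend removed (0.34, adjusted p = 0.0166) and without WT replicate 4 (adjusted p = 0.0429). The authors' deposited table also called Cntn2 higher (0.32, adjusted p = 0.000902). The ephrin gene Efnb1 (-0.10, adjusted p = 0.137) and the spindle orientation gene Insc (0.09, adjusted p = 0.647) did not pass.

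Of 5 genes reported to be repressed by NFI factors, 1 rose, 3 fell and 1 missed the threshold. Beside the 20.7% higher and 31.9% lower over all tested genes, this list is too short for its shares to be read. Its median was -0.14. With the sex score as covariate the Mbp call held (adjusted p = 0.00795) and the 3 falls were not called. Mbp, the myelin basic protein gene, averaged 99.1 ± 3.65 TPM over the iKO libraries, against 49.2 ± 1.24 TPM over the WT libraries (SD, n = 4 each; log2 difference 0.99, adjusted p = 9.11e-08). Bbx, an HMG-box gene, fell by 0.23 (adjusted p = 0.00208) and the Notch effector gene Hes1 by 0.17 (adjusted p = 0.00737). Sox9 averaged 280.0 ± 1.59 TPM over the iKO libraries, against 306 ± 7.04 TPM over the WT libraries (SD, n = 4 each; log2 difference -0.13, adjusted p = 0.000573). Removal of the length and GC trend ended the calls of Bbx (-0.10, adjusted p = 0.101) and Sox9 (-0.04, adjusted p = 0.126), and trimmed mean factors that of Hes1 (-0.10, adjusted p = 0.0526). Hes1 was not called in the authors' deposited table either (-0.04, adjusted p = 0.563). Ezh2, the Polycomb methyltransferase gene, was at -0.14 and did not pass (adjusted p = 0.0634), although it was called lower without iKO replicate 1 (-0.18, adjusted p = 0.0368) or without WT replicate 1 (-0.19, adjusted p = 0.0137).

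Among 13 tested regulators and partners of the NFI factors, 3 rose and 6 fell, beside 20.7% higher and 31.9% lower over all tested genes, so the share that rose is near that of all genes. The median was -0.06, the same as over all tested genes. With the sex score as covariate Zbtb20 kept its call (adjusted p = 0.0158), while Stat3, Olig2, Ski, Skil and Atf3 lost theirs, at adjusted p of 0.431, 0.31, 0.383, 0.522 and 0.432, as did Sox9, Sox10 and Rbpj. Zbtb20, a zinc finger gene of astrocyte differentiation, averaged 473 ± 9.04 TPM over the iKO libraries, against 633 ± 8.56 TPM over the WT libraries (SD, n = 4 each; log2 difference -0.42, adjusted p = 2.53e-07). Stat3, which carries the cytokine signal that induces astrocyte genes, fell by 0.32 (adjusted p = 8.23e-05). Olig2, an oligodendrocyte lineage factor gene, fell by 0.37 (adjusted p = 0.000267), and Sox10 by 0.17 (adjusted p = 0.00905). Trimmed mean factors ended the Sox10 call (-0.10, adjusted p = 0.081). The SMAD co-repressor gene Ski fell by 0.28 (adjusted p = 0.000829), while its relative Skil rose by 0.19 (adjusted p = 0.00108). Atf3 rose by 0.29 (adjusted p = 0.0136). Rbpj, the DNA-binding partner of Notch, was at 0.18 (adjusted p = 0.0471), a call lost with the replicate block (adjusted p = 0.0616) and on leaving out any of 7 of the 8 libraries singly. Pou3f2 (0.02, adjusted p = 0.501), Pax6 (-0.02, adjusted p = 0.681), Emx2 (-0.06, adjusted p = 0.594) and Notch1 (-0.01, adjusted p = 0.876) did not pass, and Runx2 was below the filter. Pou3f2 was called higher with trimmed mean factors (0.09, adjusted p = 0.0194), with the trend removed (0.13, adjusted p = 0.00328) and in the authors' deposited table (0.10, adjusted p = 4.17e-05), which also called Pax6 higher (0.11, adjusted p = 0.00535). With trimmed mean factors the signs of Pax6 (0.05), Emx2 (0.01) and Notch1 (0.06) turned without a call.

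**Figure D4:**
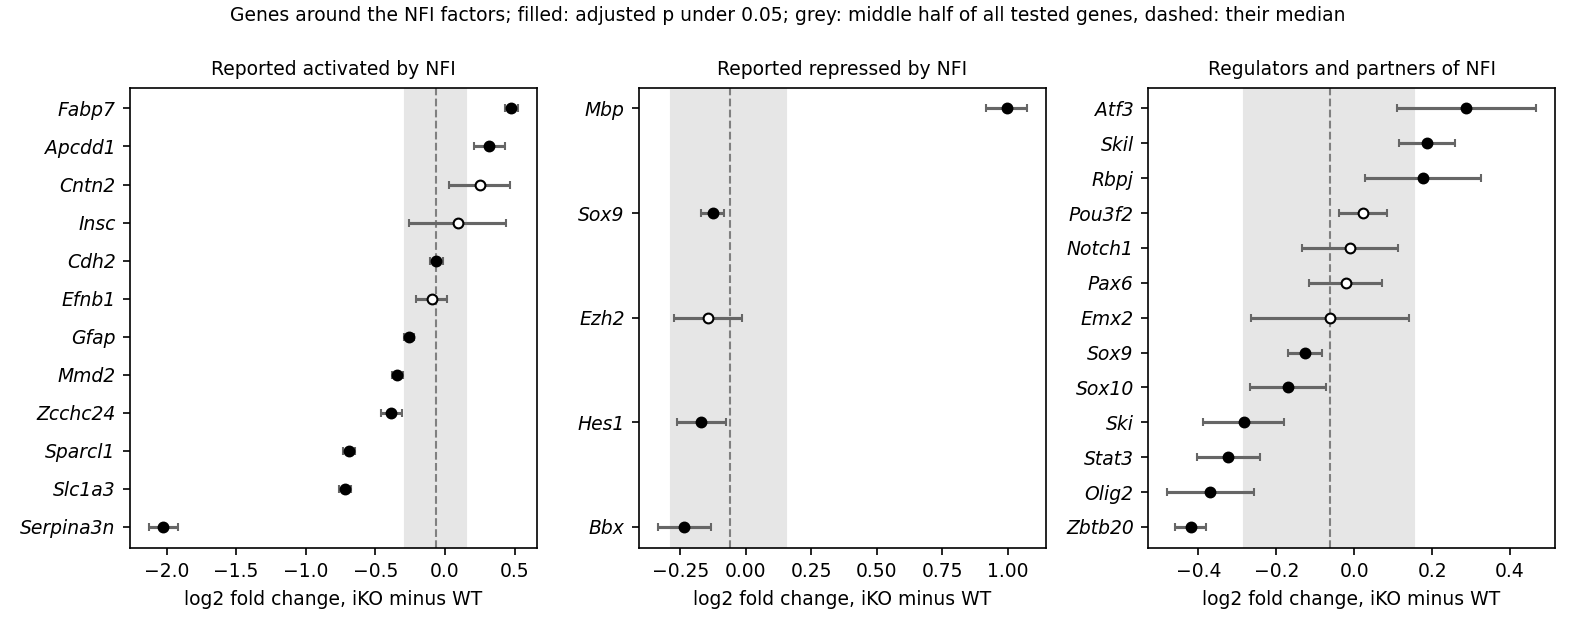
Log2 fold change, iKO minus WT (x axis), with 95% intervals for the tested genes of 3 lists (rows); filled points have an adjusted p under 0.05, the grey band spans the lower to upper quartile of all 16413 tested genes and the dashed line is their median, -0.06. Serpina3n (-2.02) lies farthest below the band and Mbp (0.99) farthest above it.

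For each member, the genes whose centred log2(TPM + 1) profile over the 8 libraries had the smallest root mean square difference from it were sought among 10507 tested genes with a mean of at least 5 TPM and a symbol that is not that of a predicted gene, pseudogene or clone. For Nfix they were Adam9 (0.0131), Dazap2 (0.0175) and Id3 (0.0191). For Nfib they were Map1b (0.0145), Ythdf2 (0.0145) and Pank3 (0.0168), and for Nfia they were Son (0.0095), Ash1l (0.0117) and Seh1l (0.0138). For Nfic, Slc25a28 (0.141) and Fastkd2 (0.157) were among the nearest, at distances far larger than those for the other members. Among the members themselves Nfib and Nfia were nearest to each other (0.0435), and Nfix lay 0.107 from Nfib and 0.148 from Nfia. The profiles share the difference between the groups, so these distances are a description over the same 8 libraries.

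Marker lists of cell types that the sort could hold differed between the groups to unequal extents, to be read beside the 20.7% higher and 31.9% lower over all tested genes. Of 15 astrocyte markers 13 fell and 1 rose. Their summed level was 8207 to 8524 TPM across iKO libraries, against 12316 to 12789 TPM across WT libraries. Of 14 tested stem cell and radial glia genes 7 fell and 3 rose, with sums of 3921 to 4008 TPM for iKO and 4644 to 4743 TPM for WT. Neuroblast markers went up in 12 of 15 cases and down in 3, with sums of 3889.5 to 4021 TPM for iKO and 3546 to 3595 TPM for WT. Endothelial markers rose in 11 of 12 cases, with sums of 969 to 1036 TPM for iKO and 547 to 571 TPM for WT. All 5 tested blood markers rose, with sums of 721 to 840.5 TPM for iKO and 69.98 to 81.1 TPM for WT. Among 12 microglia markers 8 fell and 1 rose, with sums of 617 to 639 TPM for iKO and 738 to 789 TPM for WT. The other 6 lists, of mature neurons (4 higher and 3 lower of 11), oligodendrocyte precursors (2 and 5 of 10), oligodendrocytes (4 and 1 of 6), pericytes (3 and 4 of 9), fibroblasts (3 and 5 of 9) and ependymal cells (3 and 3 of 7), moved both ways. Sums were higher in every iKO library for mature neurons (217 to 221 TPM, against 158 to 167 in WT) and oligodendrocytes (222 to 237, against 193 to 204). The same held for pericytes (989 to 1043, against 858 to 914) and ependymal cells (177 to 193, against 141 to 152). The oligodendrocyte sum includes Mbp, which averaged 99.1 TPM in iKO and 49.2 TPM in WT. That gap is wider than the mean gap between the oligodendrocyte sums, so the higher sum rests on Mbp. Fibroblast sums were lower in iKO (183 to 193, against 208 to 232), and those of oligodendrocyte precursors overlapped. Gfap, Sparcl1 and Sox9 are also among the astrocyte markers, and Fabp7, Slc1a3, Hes1, Pax6 and Notch1 among those of stem cells. Mbp is also an oligodendrocyte marker, and Olig2 and Sox10 are also markers of oligodendrocyte precursors. No marker in any of these lists was at 0 in all libraries. The part of these cell types in the NFI differences was not tested.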

How the data were processed

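RNA of FACS-sorted cortical NSPCs was amplified by Smart-Seq2, sheared as cDNA and sequenced as paired ends, per the labels' protocols. The deposited values were TPM per gene, made by the authors, and each of the 8 columns summed to 1000000. A second table deposited by the authors holds their iKO against WT comparison: mean normalized signal, log2 fold change with SE, test score, and unadjusted and adjusted p-value, under headings that DESeq2 writes, per the file headers. Its log2 fold changes are iKO over WT. The aligner, the quantifier and the build behind them are not named in the labels or file headers, that is, not given in the sources used here.

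Groups and replicate numbers came from sample titles. The test was limma 3.58.1 (R 4.3.3) on log2(TPM + 1) with trend and robust moderation, genes with at least 1 TPM in at least 4 libraries, and two-sided Benjamini-Hochberg adjusted p under 0.05; it was tested on simulated data. Ratios used exact permutation. Members, lists and the naming rule were chosen with earlier results of these data known; the rule named the members, Ash2l, list genes, overlapping genes and the 3 genes most like each member, of which 1 is not reported here. The 15 lists were written from the literature and textbook markers. Transcript lengths came from GENCODE M21, which held 99.6% of gene IDs, and promoter sequences from RefSeq GRCm38.p6. Figures were drawn with matplotlib 3.10.9.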

Additional observations from a re-analysis of the deposited data

Results flagged for a closer look

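Of 88 groups of 4 libraries examined, for tested genes named in the report, the summed NFI level and the 6 ratios, 6 had a library whose gap to its neighbour exceeded Dixon's 95% critical value for 4 samples. Chance marks about 1 in 20 such groups. The member among them was Nfic, at 21.8 TPM in iKO replicate 3 against 13.7 to 14.7 TPM in the other iKO libraries. The others were list genes. In iKO, Slc1a3 was lowest in replicate 1 at 1201 TPM (others 1248 to 1258), Pax6 in replicate 3 at 52.1 TPM (others 55.3 to 55.5) and Atf3 in replicate 2 at 95.3 TPM (others 115 to 118). In WT, Hes1 was highest in replicate 2 at 76.6 TPM (others 69.3 to 69.3) and Olig2 in replicate 1 at 58.6 TPM (others 52.3 to 52.6).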

How the results depend on the processing

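Nfix kept its fall and its call under all 19 alternatives. Nfia changed sign with trimmed mean factors (0.034), with the length and GC trend removed (0.11) and in the authors' deposited table (0.086). Nfib changed sign with the trend removed (0.020) and lost its call with the sex score as covariate (-0.14). Nfic changed sign without iKO replicate 3 (-0.04) and in the authors' deposited table (-0.30). The cause was not tested. Over all genes 8629 were called, 423 with the sex score as covariate, and 8097 with the replicate block. Same-numbered libraries did not deviate together (correlations of -0.044 to 0.001), so the numbers do not pair them; the block changed no member's call. Leaving out 1 library gave 7942 to 8216 calls, Nfia -0.04 to -0.02, Nfib -0.13 to -0.11, Nfic -0.04 to 0.22 and Nfix -0.34 to -0.32. It gave differences in log2 ratio of -0.22 to -0.20 for Nfix to Nfib, -0.30 to -0.29 for Nfix to Nfia, -0.55 to -0.30 for Nfix to Nfic, -0.090 to -0.077 for Nfib to Nfia, -0.34 to -0.08 for Nfib to Nfic and -0.26 to 0.01 for Nfia to Nfic, the last positive only without iKO replicate 3 (0.0056). Without WT replicate 4, the ratios Nfix to Nfib (-0.21), Nfix to Nfia (-0.29), Nfix to Nfic (-0.55) and Nfib to Nfia (-0.08) reached an adjusted p of 0.0429. With the sex score, 4 genes of the activated list fell and 1 rose, and none of the repressed list fell. Of the regulators, 1 fell and none rose. As the score follows the groups, this fit cannot tell sex from genotype. TPM keep no depth, so no counting interval was computed.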

Other observations

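E130114P18Rik, Gm11266 and Lyl1, which lie over NFI genes on the opposite strand, were called, beside 52.6% of all tested genes. G430095P16Rik, over Nfix, passed the filter too, but its fit is not given here. E130114P18Rik lies over Nfia and stood at 97.2, 94.9, 95.7 and 101 TPM in iKO replicates 1 to 4, and at 86.5, 80.5, 87.7 and 87.5 TPM in WT replicates 1 to 4. It rose by 0.18 on the log2 scale (SE 0.0354, adjusted p = 0.00232), where Nfia did not pass. Gm11266, annotated as an antisense gene over Nfib, averaged 37.4 ± 0.427 TPM over the iKO libraries, against 47.6 ± 3.09 TPM over the WT libraries (SD, n = 4 each), a log2 difference of -0.34 (adjusted p = 0.000325), beside -0.12 for Nfib. Lyl1, a helix-loop-helix factor gene of blood and endothelial lineages that overlaps Nfix, averaged 17.2 ± 1.73 TPM over the iKO libraries, against 9.84 ± 1.53 TPM over the WT libraries (SD, n = 4 each). It rose by 0.76 (adjusted p = 0.000379) where Nfix fell. The groups overlapped for G430095P16Rik over Nfix, with 1.99 to 3.99 TPM among iKO libraries, against 3.06 to 3.99 TPM among WT libraries, and for Gm16104 over Nfic, with 0.82 to 1.64 TPM among iKO libraries, against 0 to 0.966 TPM among WT libraries. Gm11268, Gm11269 and n-R5s188, over Nfib, were listed at 0 throughout. With the sex score as covariate none of the 3 called genes was called, at adjusted p of 0.329, 0.764 and 0.191.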
